A study of Homo sapiens with 5 samples.

Results

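The 37 interferon-stimulated genes described here are a list of names of genes that cells switch on after interferon. All 37 were found by symbol, in 65 of the 16383 transcript rows of the table, and where a gene had several rows the one with the largest mean stands for it. They make up 37 of the 10596 genes of the table. The libraries are of MDA-MB-231, an established triple-negative breast cancer line of human origin, with 1 library per group. Cells with SET silenced by siRNA (siSET) and cells with CIP2A silenced (siCIP2A) are each compared with cells given a control siRNA (siNT). The siRNAs were given for 48 hours, although the treatment label of siCIP2A itself names no time. Cells given 1 µM OP449, called a SET antagonist in the series, for 12 hours (OP449) were set against cells given PBS for 12 hours (PBS). SET and CIP2A are cellular inhibitors of the phosphatase PP2A, and the series asks what their loss or antagonism does to gene expression. No group has a replicate, so no difference below has a replicate check and none carries a p-value. How far SET and CIP2A were silenced was not analysed here.

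Interferons of type I and type III bind receptors that activate the kinases JAK1 and TYK2. These phosphorylate STAT proteins, among them STAT2, which join IRF9 in a complex that binds the interferon-stimulated response element (ISRE) in promoters. Interferon gamma acts mainly through another element (GAS). The genes switched on bind or destroy viral RNA, hold viruses at membranes, tag proteins with the ubiquitin-like ISG15, or sense RNA and raise more interferon. Many tumour lines keep part of this set on without added interferon.

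The promoter windows that the list shares are shown first, because promoter letters were not used to choose the genes. The ISRE core was searched as GAAA, any 2 bases and GAAA again, which reads as TTTC, any 2 bases and TTTC on the other strand, in RefSeq windows (GRCh38.p14) from 250 bases before to 50 bases after each gene start. Of the 37 genes 28 had a window, and 20 of these 28 (71.4%) held at least 1 core, against 4.38% of 27305 genes with a window. The GAS letters, TTCNNNGAA, which read the same on both strands, were held by 7 of the 28 genes (25%), against 9.38% of all genes. Overlapping matches were counted, and a match is a run of letters, not a measured binding site. The stretches around the cores are given for the 6 genes that were at least 1.5-fold apart in one of the comparisons below and had a match, and for IFIT5 and IFITM3, neighbours of IFIT1 and IFITM1 with steadier levels. Each is on the gene's own strand, and capitals mark the cores.
IFIT1 (chr10:89392497-89392539, plus strand): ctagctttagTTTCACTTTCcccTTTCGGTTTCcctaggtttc
IFIT5 (chr10:89414513-89414583, plus strand): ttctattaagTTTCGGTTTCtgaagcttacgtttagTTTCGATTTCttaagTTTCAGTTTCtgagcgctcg
IFITM1 (chr11:313990-314053, plus strand): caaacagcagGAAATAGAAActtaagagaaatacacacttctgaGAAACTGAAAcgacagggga
IFITM3 (chr11:320876-320922, minus strand): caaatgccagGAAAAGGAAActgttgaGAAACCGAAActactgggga
ISG15 (chr1:1013374-1013409, plus strand): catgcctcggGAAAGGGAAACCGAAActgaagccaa
IFI44 (chr1:78649761-78649790, plus strand): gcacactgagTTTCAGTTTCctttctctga
IFI6 (chr1:27672266-27672358, minus strand): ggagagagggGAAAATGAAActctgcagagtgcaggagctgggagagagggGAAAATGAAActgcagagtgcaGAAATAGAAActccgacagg
RSAD2 (chr2:6877622-6877651, plus strand): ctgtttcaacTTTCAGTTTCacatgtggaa
In ISG15 2 cores overlap, and the whole window (chr1:1013247-1013546, plus strand) is given as the example of a promoter of this list.
ISG15 window: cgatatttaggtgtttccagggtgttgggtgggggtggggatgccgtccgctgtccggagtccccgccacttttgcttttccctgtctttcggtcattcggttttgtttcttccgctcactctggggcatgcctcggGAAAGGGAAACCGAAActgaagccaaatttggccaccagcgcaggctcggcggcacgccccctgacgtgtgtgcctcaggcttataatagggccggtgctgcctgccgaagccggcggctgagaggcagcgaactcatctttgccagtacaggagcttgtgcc

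**Figure D1:**
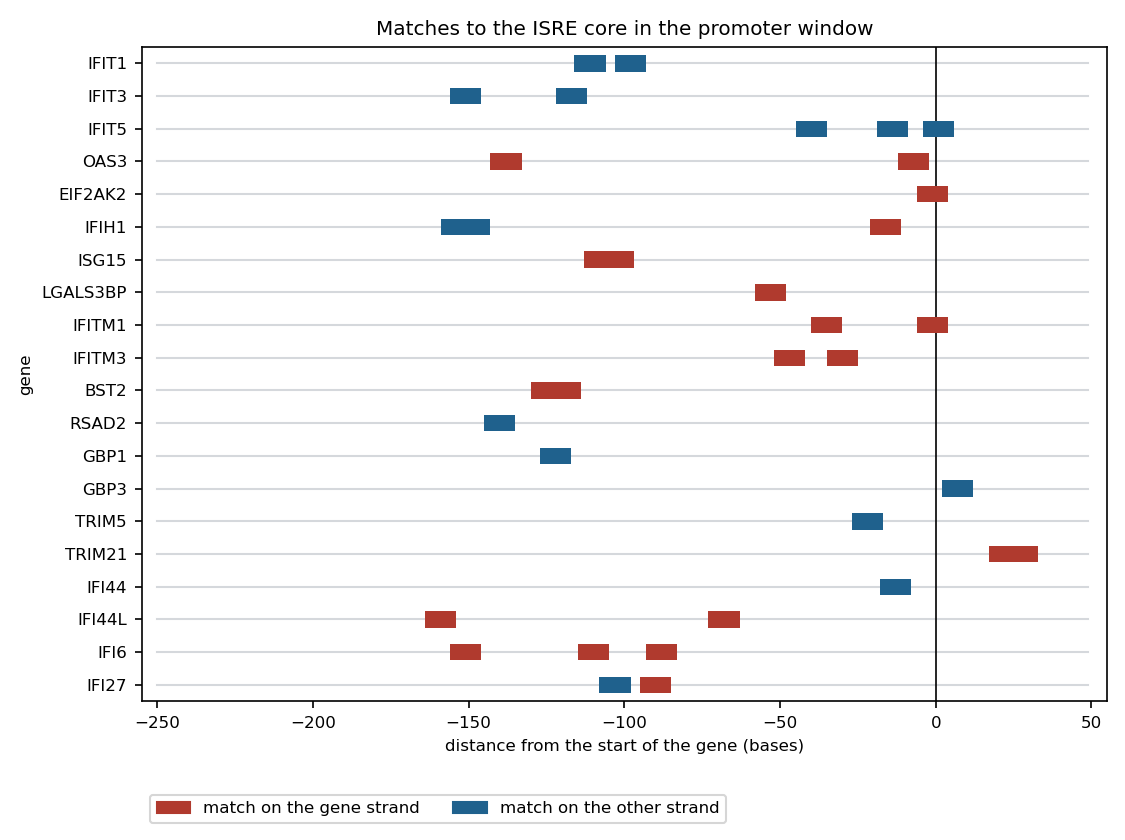
Positions of ISRE core matches (boxes, coloured by strand) in the promoter windows of the 20 genes that held one, on a horizontal axis of distance from the gene start in bases. One window is drawn per gene, the first in the reference table that held a match. Matches lay mostly upstream of the start, while those of TRIM21 and GBP3 lay after it.

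The values are scaled counts per transcript that the authors had put on a common scale. A read was worth 1.10 to 1.71 scaled counts, and the libraries held 3641329 to 5602224 recovered reads over the gene table, fewest in siSET and most in siCIP2A. The interferon-stimulated genes together took 0.488% to 0.553% of the scaled counts, lowest in OP449. Markers of the line were read at high levels (VIM at 15670 to 20866 scaled counts), while PGR and KRT5 were at 0 reads in every library. ERBB2 stood at 1049 to 1179 and EPCAM at 139 to 282 scaled counts, although both are commonly low in this line, and CDH1 at 12.9 to 56.7. Of the immune markers read, CD68 was read at 1989 to 2401 scaled counts and PTPRC, CD3E, LYZ and NKG7 at 0 to 2 reads per library. Of the 4 fibroblast markers, DCN and THY1 were at 0 reads in every library, LUM at 1 to 5 reads, and COL1A1 at 73.7 to 104 scaled counts in siSET, siCIP2A, OP449 and PBS and at 162 in siNT, whose part in the results was not tested. A count of 0 allows up to 3 reads, or 3.31 to 5.13 scaled counts. In these bulk libraries fewer cells that express a gene and less RNA per cell cannot be told apart.

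Compared per kilobase of transcript, the 36 genes with a known transcript length had means over the libraries of 1.44 to 3459 scaled counts per kb. LGALS3BP, a secreted glycoprotein that binds galectins, was first, and its lowest library (2797 scaled counts per kb) stood above every library of the other genes. BST2 (tetherin, which holds budding virus at the cell surface), IFI27, ISG15 and IFITM3 (which blocks virus entry at endosomes) followed at 1762, 1741, 1732 and 1656 scaled counts per kb, and their ranges over the libraries overlapped. TRIM25, an E3 ligase, and the RNA editing enzyme ADAR came next, at 694 and 602 scaled counts per kb. The components of the transcription complex stood lower, with STAT2 at 223, IRF9 at 73.2 and IRF7 at 56.5 scaled counts per kb. At the low end were the RNA helicase DHX58 (19.6), RSAD2 (14.1) and the 3 genes below it. Of the 37 genes, 33 averaged at least 50 scaled counts over the 5 libraries.

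The other 4 genes averaged under 50 scaled counts and are too low to read firmly. OAS1, a synthetase of the 2-5A signal that activates RNase L, had 6 to 22 reads per library, TRIM22 5 to 23 reads and IFI44L 2 to 11 reads. OP449 was the lowest library for each of these 3 genes. RSAD2 (viperin), a radical SAM enzyme that makes a chain terminator of viral RNA synthesis, averaged 49.6 scaled counts. It passed the floor used for folds, a mean of at least 50 over the 2 libraries compared, in each of the 4 comparisons made, which are siSET and siCIP2A over siNT, OP449 over PBS and siNT over PBS, with 17 to 68 reads per library.

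**Figure D2:**
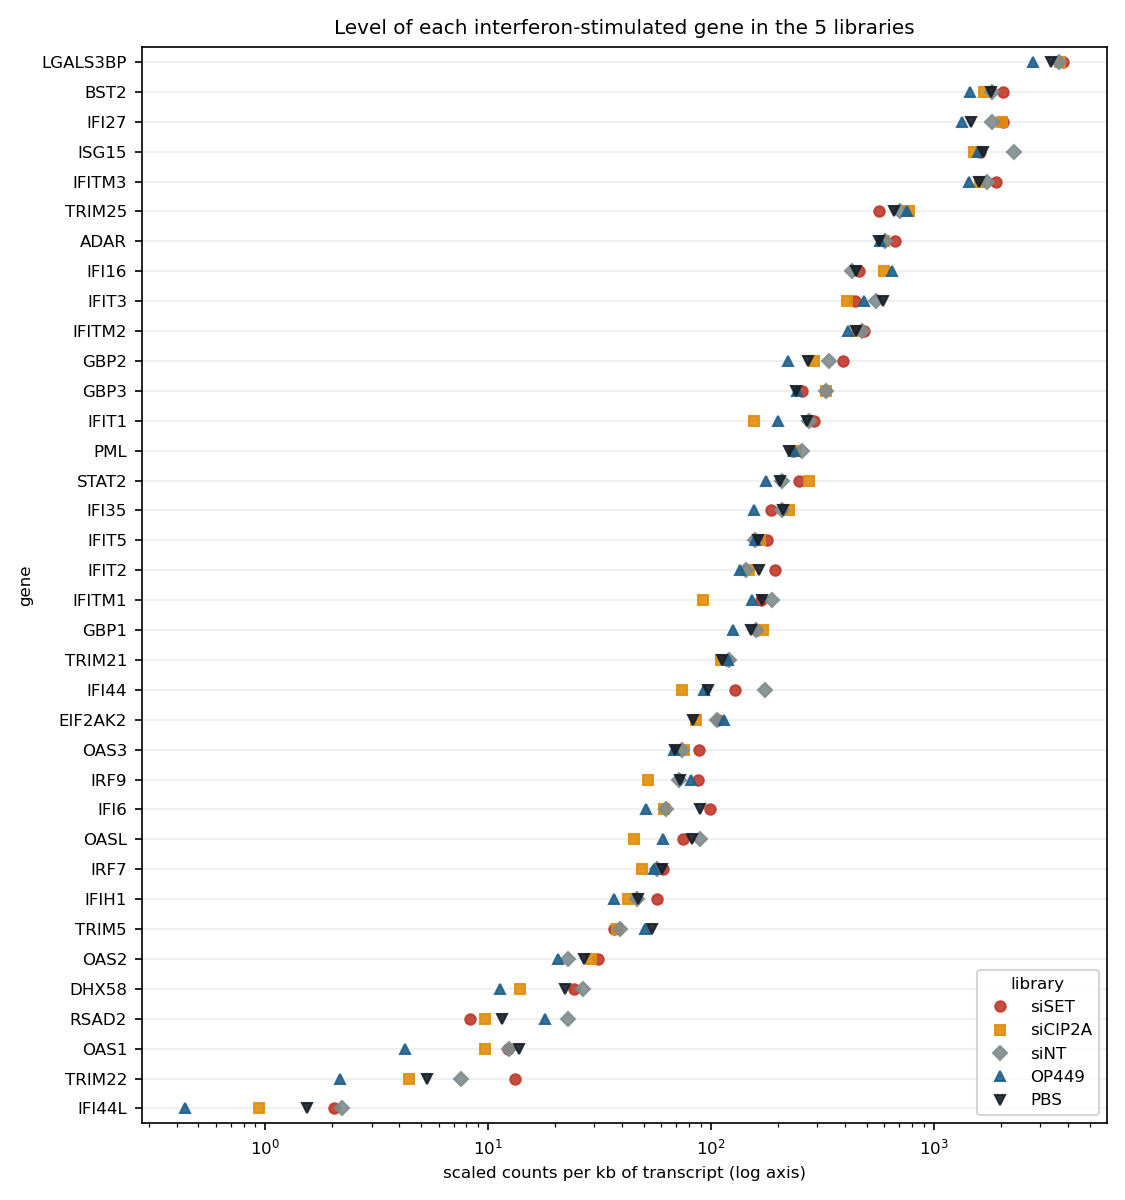
Level of each gene in each library as scaled counts per kb of transcript on a log axis (horizontal), genes ordered by mean level, with 1 marker per library. XAF1 had no transcript length and is left out. LGALS3BP was highest and IFI44L lowest, and in most rows the 5 markers lay close together beside the distance between genes.

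Folds are log2 ratios of scaled counts + 1, first library over second, so a positive one means higher in the first. Brackets give the 95% exact Clopper-Pearson interval of the log2 ratio of reads, which covers counting error only. Past the floor, 9 genes were at least 1.5-fold apart in at least 1 of the 4 comparisons: IFIT1, OASL, DHX58, ISG15, IFITM1, RSAD2, IFI44, IFI6 and XAF1. The share of all genes that meet this rule is not given. The 9 are therefore only the genes described in full, and shares of all genes follow for each comparison. Another scaling, a larger pseudocount and the mean over a gene's transcripts turned no called direction.

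The most genes past 1.5-fold were in siCIP2A. In this library 8 genes of the list were at least 1.5-fold lower than in siNT (8 of 34 past the floor), against 3.33% of all 6102 genes past the floor, and 3 of the 34 were at least 2-fold lower, against 0.639%. None was at least 1.5-fold higher (0 of 34, against 2.75% of all genes). RSAD2, DHX58 and XAF1, all among the 8, passed the floor only through siNT, and RSAD2 is also among the 3. They stood at 34.2, 36.4 and 48.6 scaled counts in siCIP2A. Intervals lay below 0 for 13 of the 34 (all genes 20.2%) and above 0 for 4 (all genes 21.3%). The median log2 fold was -0.09, with 23 genes below 0, while the median of all genes was 0.02. The list lay lower in its middle too, but the difference was larger in its lower tail. Its lower quartile was -0.46 (all genes -0.15) and its upper quartile 0.04 (all genes 0.18).

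IFIT1, which binds viral RNA at its 5' end, stood at 546 scaled counts in siSET, 295 in siCIP2A and 520.3 in siNT, and at 376 in OP449 and 507 in PBS. It was lowest in siCIP2A, next lowest in OP449, and similar in the other 3 libraries. The log2 fold of siCIP2A over siNT was -0.82 [-1.04 to -0.60], from 267 and 439 reads. OASL, a synthetase-like protein that enhances RNA sensing, stood at 245 scaled counts in siSET, 148 in siCIP2A and 292 in siNT, and at 198 in OP449 and 268 in PBS. It had the same lowest and next lowest libraries as IFIT1, at -0.97 [-1.29 to -0.67] in siCIP2A over siNT. IFITM1, which blocks virus entry at the cell surface, stood at 144 scaled counts in siSET, 78.4 in siCIP2A and 160.0 in siNT, and at 130.1 in OP449 and 145 in PBS. Here siCIP2A alone was low, at -1.02 [-1.46 to -0.60] over siNT, and the other 4 libraries had overlapping counting intervals.

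IFI44, a cytoplasmic protein of little-known function, stood at 217 scaled counts in siSET, 125 in siCIP2A and 295 in siNT, and at 157 in OP449 and 164 in PBS. The siNT library was highest and siCIP2A lowest, which gave -1.24 [-1.58 to -0.92]. RSAD2 stood at 29.1 scaled counts in siSET, 34.2 in siCIP2A and 80.6 in siNT, and at 63.1 in OP449 and 40.8 in PBS. It was likewise highest in siNT, and siCIP2A over siNT gave -1.21 [-1.90 to -0.60] from 31 and 68 reads. ISG15, the ubiquitin-like modifier, stood at 1023 scaled counts in siSET, 961 in siCIP2A and 1458 in siNT, and at 1011 in OP449 and 1063 in PBS. The siNT library stood above the other 4, which lay within 961 to 1063 scaled counts. The log2 fold of siCIP2A over siNT was -0.60 [-0.73 to -0.48].

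DHX58 (LGP2), a helicase that tunes the sensing of double-stranded RNA, stood at 63.3 scaled counts in siSET, 36.4 in siCIP2A and 69.9 in siNT, and at 29.6 in OP449 and 57.8 in PBS. It was low in siCIP2A and OP449, with 33 and 23 reads. XAF1, a pro-apoptotic antagonist of the inhibitor XIAP, stood at 58.2 scaled counts in siSET, 48.6 in siCIP2A and 74.7 in siNT, and at 69.6 in OP449 and 85.0 in PBS. It was lowest in siCIP2A and highest in PBS. The log2 folds of siCIP2A over siNT were -0.92 [-1.60 to -0.30] for DHX58 and -0.61 [-1.21 to -0.04] for XAF1, and both rest on few reads.

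Part of this set depends on the control. Against PBS, siCIP2A was still at least 1.5-fold lower for 4 genes of the 32 past the floor (all genes 2.93%), IFIT1 at -0.78 [-1.01 to -0.56], OASL at -0.85 [-1.17 to -0.54], IFITM1 at -0.88 [-1.33 to -0.46] and XAF1 at -0.79 [-1.38 to -0.25]. Under the same control ISG15 was at -0.15 [-0.28 to -0.01] and IFI44 at -0.39 [-0.77 to -0.03]. RSAD2 and DHX58 were under the floor there. XAF1 passed it only through PBS, at 48.6 scaled counts in siCIP2A against 85.0 in PBS. The list's median against PBS was 0.02, as was that of all genes. None of the 32 was at least 2-fold lower than PBS (all genes 0.705%), 2-fold higher (all genes 0.41%) or 1.5-fold higher (all genes 2.85%). Intervals against PBS lay below 0 for 9 genes (all genes 20.4%), IFIT3 at -0.54 [-0.67 to -0.42] among them, and above 0 for 7 (all genes 22.4%).

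In siCIP2A the intervals of IFI16, STAT2, IFI27 and TRIM25 lay above 0. IFI16, a nuclear DNA sensor, stood at 1259 scaled counts in siSET, 1642 in siCIP2A and 1169.7 in siNT, and at 1777 in OP449 and 1221 in PBS. It was high in siCIP2A and in OP449 and level in the other 3 libraries, with 0.49 [0.37 to 0.61] for siCIP2A over siNT. STAT2, the DNA-bound complex's transactivating subunit, stood at 809 scaled counts in siSET, 901 in siCIP2A and 678 in siNT, and at 575 in OP449 and 665 in PBS. It was highest in siCIP2A, at 0.41 [0.25 to 0.57] over siNT, and IFI27 was at 0.15 [0.02 to 0.27] and TRIM25 at 0.13 [0.07 to 0.20]. IRF9, the partner of STAT2 that binds DNA, went the other way, at 96.1 scaled counts in siCIP2A against 133 in siNT and a log2 fold of -0.46 [-0.89 to -0.05]. The kinase EIF2AK2 (PKR), which halts translation on double-stranded RNA, was also below siNT, at -0.31 [-0.52 to -0.09].

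**Figure D3:**
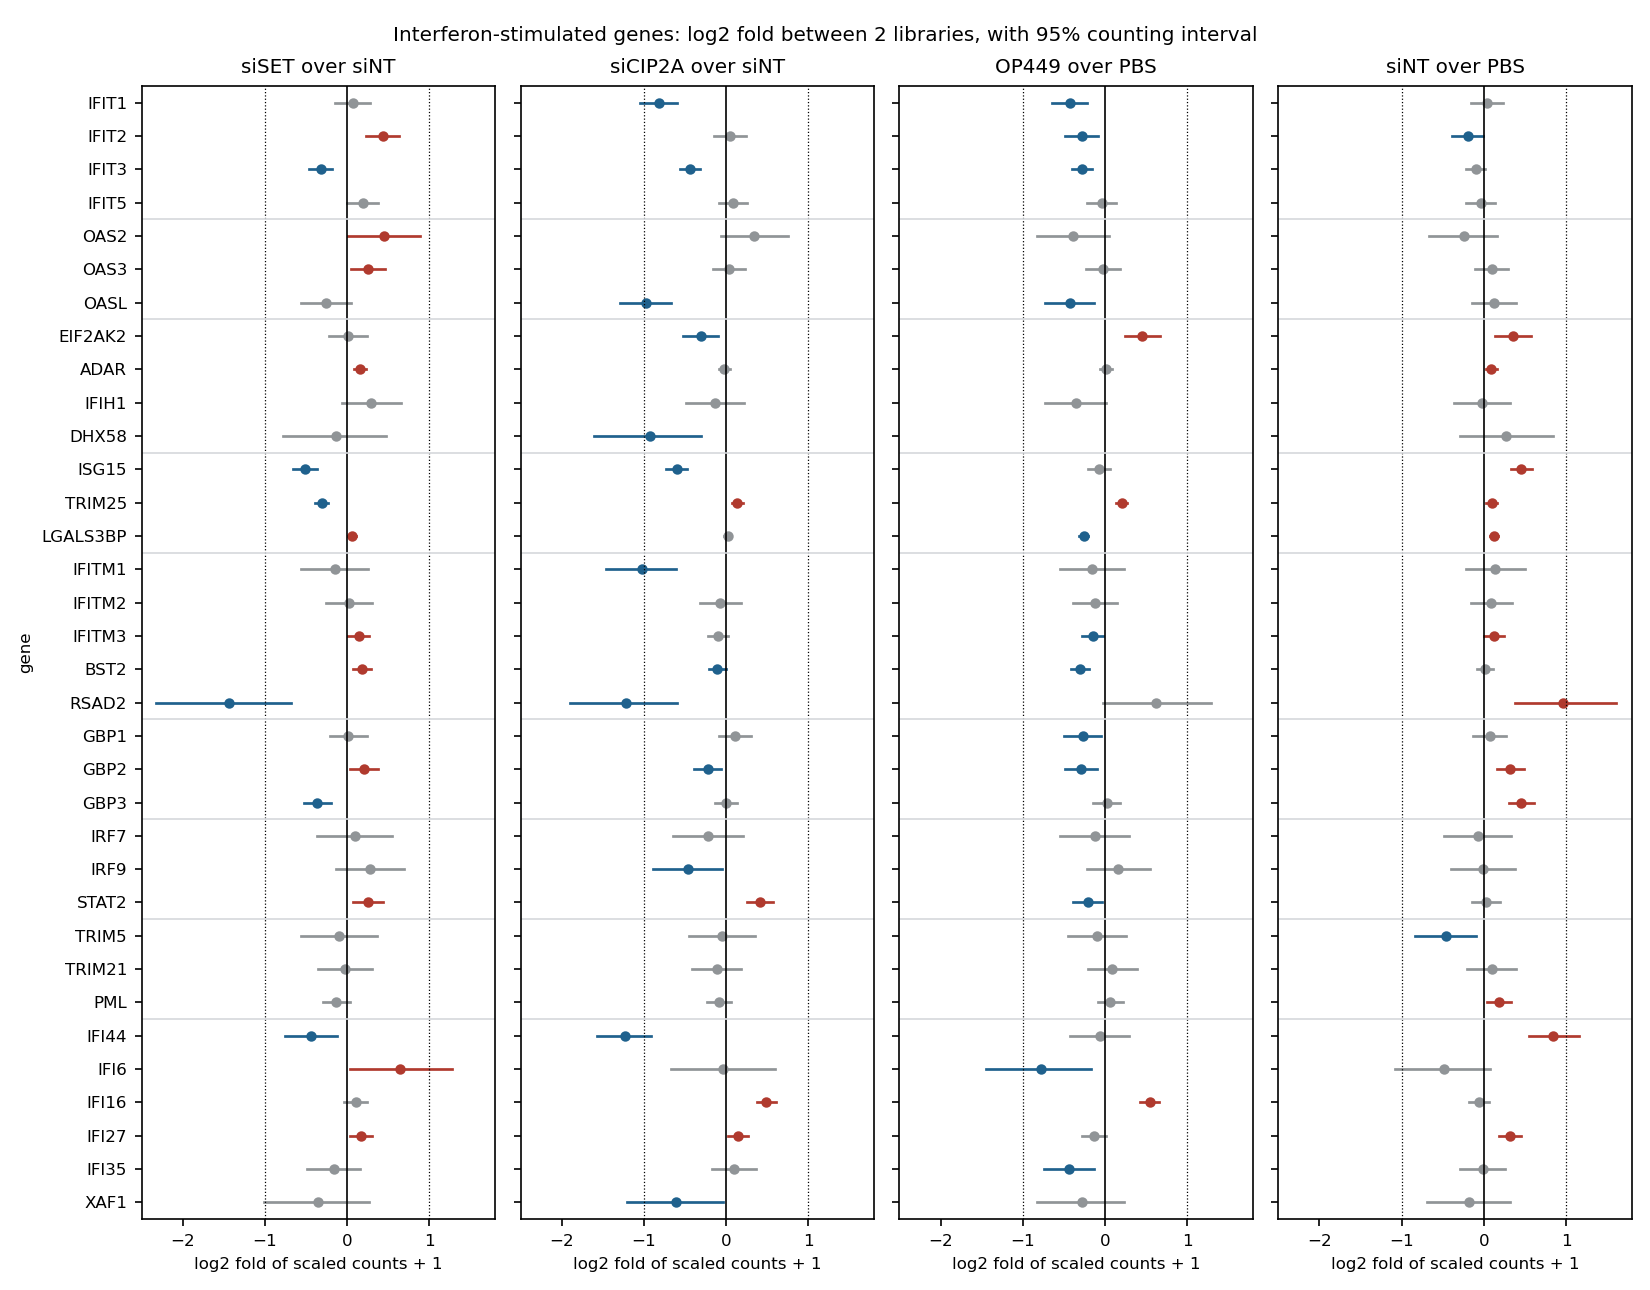
Log2 fold (points, horizontal axis) with 95% counting interval (bars) of each gene past the floor in the 4 comparisons, with genes grouped by role and rows parted by grey lines. Red marks intervals above 0, blue intervals below 0 and grey intervals that span 0, and dotted lines mark 2-fold. IFI44, RSAD2 and IFITM1 lay beyond the lower dotted line in siCIP2A over siNT, and only RSAD2 did in siSET over siNT.

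OP449 for 12 hours came with small, widely shared lower values. Of the 33 genes past the floor, 24 were below PBS, where 46.3% of all 6096 genes were, and the median log2 fold was -0.13, against 0.02 for all genes. Intervals lay below 0 for 12 of 33 (all genes 16.9%) and above 0 for 3 (all genes 19.3%). No gene of the list was 2-fold apart in either direction, while 0.295% of all genes were in each direction. At 1.5-fold there was 1 gene lower (all genes 1.77%) and 1 higher (all genes 1.98%).

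The gene 1.5-fold lower was IFI6, a mitochondrial and endoplasmic reticulum protein that restrains apoptosis and flavivirus replication. IFI6 stood at 82.1 scaled counts in siSET, 50.8 in siCIP2A and 52.1 in siNT, and at 42.5 in OP449 and 73.7 in PBS. It was highest in siSET and PBS and lowest in OP449, and OP449 over PBS gave -0.78 [-1.44 to -0.17] from 33 and 65 reads. In this comparison IFI6 passed the floor only through PBS. The gene 1.5-fold higher was RSAD2, at 0.62 [-0.02 to 1.29] from 49 and 36 reads, an interval that includes 0. RSAD2 passed the floor here only through OP449, at 63.1 scaled counts against 40.8 in PBS.

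By role, 3 of the 4 IFIT genes had intervals below 0 in OP449, namely IFIT1 at -0.43 [-0.65 to -0.21], IFIT2 at -0.28 [-0.48 to -0.09] and IFIT3 at -0.28 [-0.41 to -0.16]. Among the synthetase family OASL was at -0.43 [-0.73 to -0.13], while OAS2 and OAS3 had intervals that span 0. Of the 5 genes that act on virus at membranes, 2 had intervals below 0 and none above. These were BST2, which stood at 1482 scaled counts in OP449 against 1833 in PBS, a log2 fold of -0.31 [-0.42 to -0.20], and IFITM3 at -0.15 [-0.28 to -0.02]. Of the guanylate-binding proteins, GTPases that attack vacuoles of pathogens, GBP1 was at -0.27 [-0.49 to -0.05] and GBP2 at -0.30 [-0.49 to -0.10]. LGALS3BP, the deepest gene of the list, stood at 6726 scaled counts in OP449 against 8058 in PBS, from 5221 and 7109 reads, and gave -0.26 [-0.31 to -0.21]. It is the gene with the narrowest interval of the list. STAT2 was at -0.21 [-0.39 to -0.03] and IFI35, a partner of the adaptor NMI, at -0.43 [-0.74 to -0.13].

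The 3 genes with intervals above 0 in OP449 were IFI16, EIF2AK2 and TRIM25. IFI16 gave 0.54 [0.43 to 0.66] from 1379 and 1077 reads. EIF2AK2 stood at 465 scaled counts in siSET, 373 in siCIP2A and 462 in siNT, and at 497 in OP449 and 363 in PBS. It was higher in OP449, siSET and siNT than in siCIP2A and PBS, with 0.45 [0.24 to 0.67] for OP449 over PBS. TRIM25 gave 0.20 [0.13 to 0.27], at 4362 scaled counts in OP449 against 3788 in PBS. The OP449 and siCIP2A comparisons share no library. Past the floor no gene of the list was 1.5-fold lower in both, with 8 lower in siCIP2A and only 1 in OP449. The share of all genes lower in both is not given, so this count is not set against all genes. DHX58 was under the floor in OP449 over PBS, where it gave -0.94 [-1.74 to -0.23], beside -0.92 [-1.60 to -0.30] in siCIP2A over siNT.

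In siSET the middle of the list lay near that of all genes over siNT, and above it over PBS. The median log2 fold over siNT was 0.04 for the 34 genes past the floor and 0.01 for all 6084 genes, with 20 genes above 0 and 14 below. Over PBS the median was 0.13 for 33 genes, 25 of them above 0, against 0.0080 for all genes, of which 51.3% were above 0. Of the 34, 1 was at least 2-fold lower (all genes 0.789%) and none 2-fold higher (all genes 0.394%). Intervals were above 0 for 11 (all genes 19.8%) and below 0 for 6 (all genes 19.8%). At 1.5-fold the count was 1 higher (all genes 2.84%) and 1 lower (all genes 4.31%).

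The gene 2-fold lower in siSET was RSAD2, at -1.44 [-2.33 to -0.69] from 17 and 68 reads. It passed the floor only through siNT, at 29.1 scaled counts in siSET against 80.6 in siNT. Against PBS the RSAD2 pair was under the floor, with 17 and 36 reads. The other genes with intervals below 0 were ISG15 at -0.51 [-0.65 to -0.37], IFI44 at -0.44 [-0.76 to -0.13], GBP3 at -0.36 [-0.53 to -0.20], IFIT3 at -0.32 [-0.46 to -0.18] and TRIM25 at -0.31 [-0.39 to -0.23]. TRIM25 stood at 3259 scaled counts in siSET, 4441 in siCIP2A and 4046 in siNT, and at 4362 in OP449 and 3788 in PBS. It was lowest in siSET, where it had 1905 reads, and against PBS it was also lower, at -0.22 [-0.30 to -0.14]. IFIT3 too stayed below PBS in siSET, at -0.43 [-0.56 to -0.29], while ISG15 was at -0.06 [-0.21 to 0.09] and GBP3 at 0.09 [-0.08 to 0.27], intervals that span 0. IFI44 was above PBS, at 0.40 [0.05 to 0.76]. Against PBS none of 33 genes was 2-fold higher in siSET (all genes 0.279%) or lower (all genes 0.378%), and none 1.5-fold higher (all genes 2.38%) or lower (all genes 3.34%). Intervals lay above 0 for 11 (all genes 19.2%), with GBP2 at 0.52 [0.34 to 0.70] and IFI27 at 0.48 [0.34 to 0.62] the highest, and below 0 for 3 (all genes 19.3%), TRIM25, IFIT3 and TRIM5.

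Among the genes above siNT in siSET, IFI6 gave 0.65 [0.03 to 1.28], from 48 and 44 reads. IFIT2 stood at 677 scaled counts in siSET against 502 in siNT and a log2 fold of 0.43 [0.23 to 0.63]. The synthetase genes OAS2 and OAS3 were at 0.44 [0.01 to 0.89] and 0.25 [0.04 to 0.46], and STAT2 at 0.25 [0.08 to 0.43]. The OAS2 value is that of the transcript with the highest mean scaled counts, with no allowance for length. A shorter OAS2 transcript was lower in siSET than in siNT. In siNT that shorter transcript stood above the one used, at 139.8 against 107.8 scaled counts. ADAR, which edits adenosine in double-stranded RNA, was at 0.15 [0.08 to 0.23] from 2619 and 3398 reads. GBP2, BST2, IFI27, IFITM3 and LGALS3BP had intervals above 0 as well, with log2 folds of 0.20, 0.18, 0.17, 0.14 and 0.06. The siSET library was the highest of the 5 for 16 of the 33 readable genes (48.5%, against 22.6% of 6093 genes with a mean of at least 50). The OP449 library was the lowest for 15 (45.5%, against 21.1% of those genes) and siCIP2A for 10 (30.3%, against 19.8%).

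**Figure D4:**
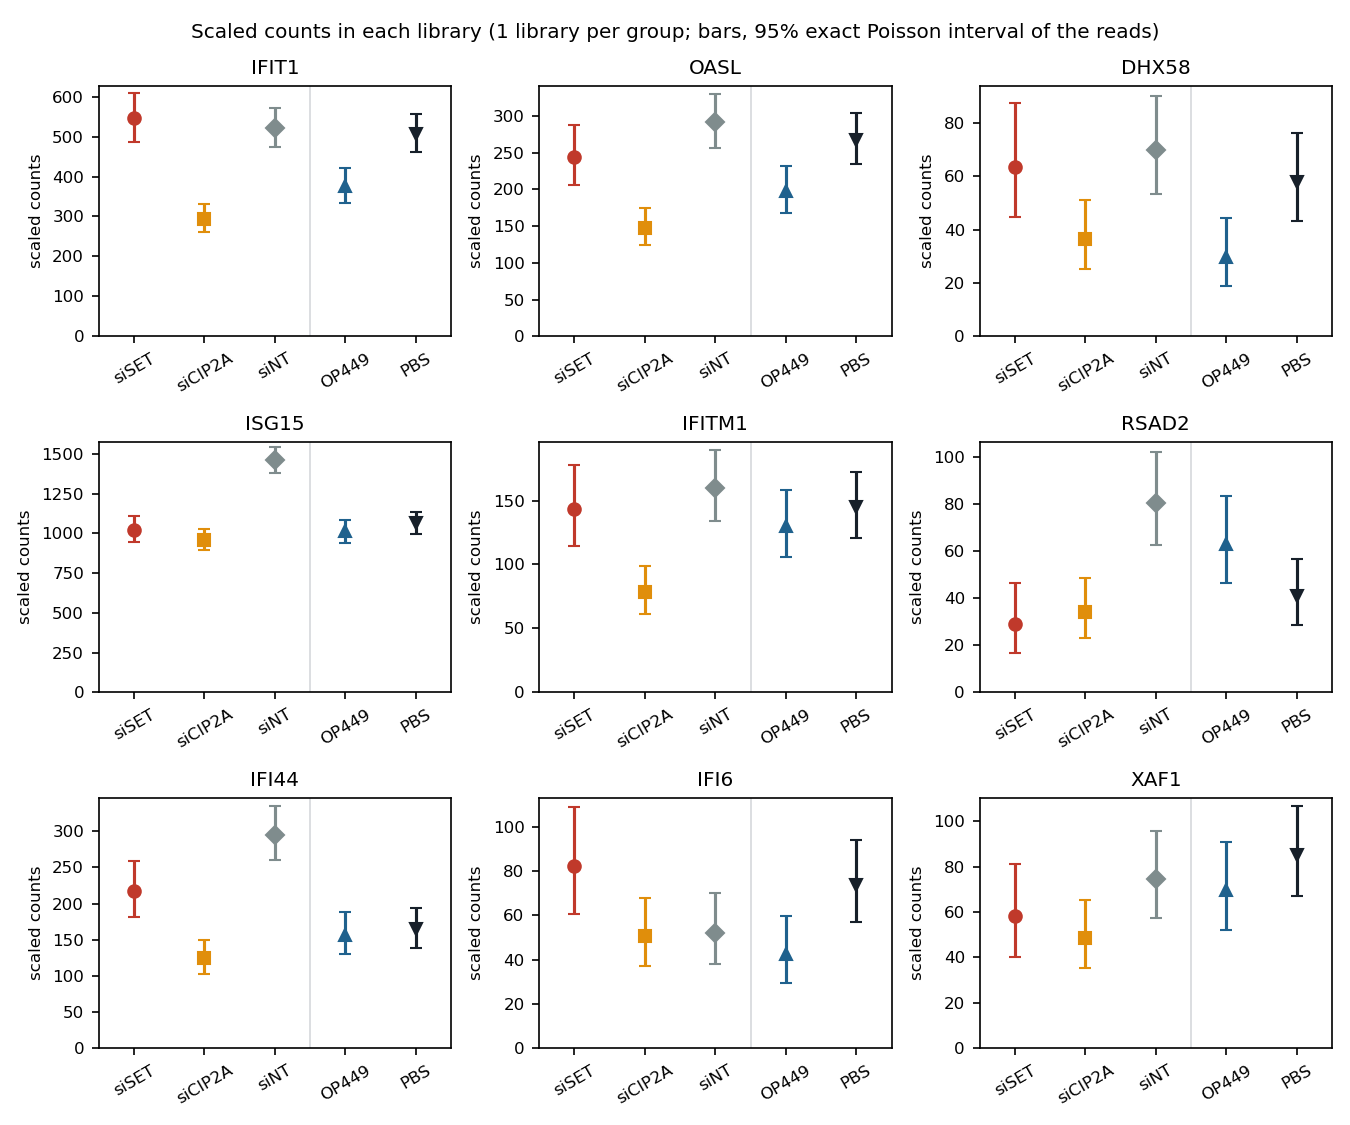
Scaled counts (vertical axes, from 0) of the 9 genes at least 1.5-fold apart in some comparison, in each of the 5 libraries, with bars for the 95% exact Poisson interval of the reads. IFIT1, OASL and IFITM1 were low in siCIP2A, whereas ISG15, RSAD2 and IFI44 were highest in siNT.

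The controls were compared with each other, siNT over PBS, since they set how much these genes differ without a treatment of interest. They differ both in siRNA and in time, which cannot be told apart. Of the 34 genes past the floor 22 were above PBS in siNT, and the median log2 fold was 0.09, against -0.0041 for all 6076 genes. Intervals lay above 0 for 12 (all genes 17.7%) and below 0 for 2 (all genes 17.6%). RSAD2, at 0.96 [0.38 to 1.61], and IFI44, at 0.84 [0.54 to 1.15], were at least 1.5-fold higher (2 of 34, against 1.63% of all genes). RSAD2 passed the floor here only through siNT, at 80.6 scaled counts against 40.8 in PBS. None of the 34 was 2-fold higher (all genes 0.247%), 2-fold lower (all genes 0.148%) or 1.5-fold lower (all genes 1.4%). ISG15 was at 0.45 [0.33 to 0.58], GBP3 at 0.45 [0.31 to 0.60], EIF2AK2 at 0.35 [0.13 to 0.57], GBP2 at 0.32 [0.15 to 0.49] and IFI27 at 0.31 [0.18 to 0.45]. With intervals below 0 were TRIM5, a retroviral capsid restriction factor, at -0.47 [-0.84 to -0.10], and IFIT2 at -0.20 [-0.39 to -0.01]. IFIT1 was at 0.04 [-0.16 to 0.23], IFITM1 at 0.14 [-0.22 to 0.50] and STAT2 at 0.03 [-0.14 to 0.20], so the siNT library was not above PBS for every gene of the list. The siSET and siCIP2A folds share siNT as their denominator, and a high value there lowers both.

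**Figure D5:**
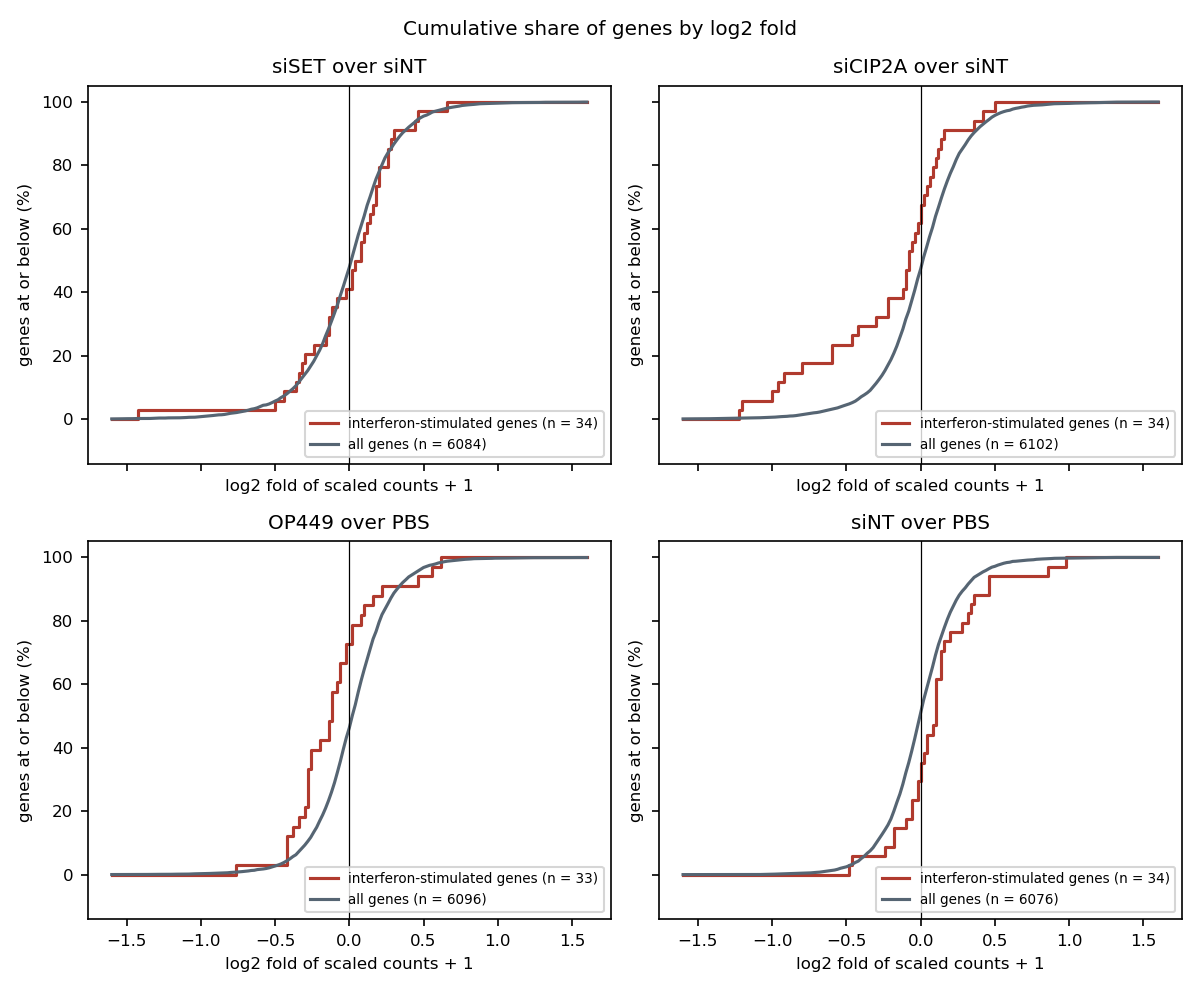
Cumulative share of genes (vertical axis, %) at or below each log2 fold (horizontal axis) for the interferon-stimulated genes (red) and all genes past the floor (grey), 1 panel per comparison. The red line follows the grey in siSET over siNT. In OP449 over PBS it lies to the left of the grey over the middle of the range, but not at either end. In siCIP2A over siNT it lies to the left over most of the range, furthest at the low end. In siNT over PBS it lies to the right over most of the range.

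Neighbouring relatives did not share one pattern. On hg19 the IFIT genes lie together on chromosome 10, with IFIT2 from 91061706 to 91069032, IFIT3 from 91087602 to 91100724, IFIT1 from 91152322 to 91163742 and IFIT5 from 91174325 to 91180758 (whole transcripts, counted from 1). In siCIP2A over siNT they gave 0.04, -0.44, -0.82 and 0.08, in that order. IFIT3, which stabilizes IFIT1, stood at 1103 scaled counts in siSET, 1018 in siCIP2A and 1381 in siNT, and at 1217 in OP449 and 1483 in PBS. It was highest in PBS and siNT and lowest in siCIP2A and siSET. IFIT2, which promotes apoptosis, stood at 677 scaled counts in siSET, 518 in siCIP2A and 502 in siNT, and at 473 in OP449 and 576 in PBS. It was highest in siSET. IFIT5 was steady, with 633 to 720.2 scaled counts over the libraries, and the stretch printed above holds 3 cores.

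The IFITM genes lie together on chromosome 11, IFITM2 from 308107 to 309409, IFITM1 from 313991 to 315271 and IFITM3 from 319673 to 320914. Only IFITM1 differed past 1.5-fold in siCIP2A. IFITM2 stood at 319.9 scaled counts in siSET, 300.3 in siCIP2A and 315 in siNT, and at 272 in OP449 and 296 in PBS, and its counting intervals overlapped in all 5 libraries. IFITM3 stood at 1539.6 scaled counts in siSET, 1307 in siCIP2A and 1399.6 in siNT, and at 1158 in OP449 and 1285 in PBS, highest in siSET and lowest in OP449. The GBP genes, on chromosome 1 at 89472367 to 89591799, split as well. GBP2 stood at 867 scaled counts in siSET, 646 in siCIP2A and 755 in siNT, and at 492 in OP449 and 604 in PBS. It was highest in siSET and lowest in OP449. GBP3 stood at 785 scaled counts in siSET, 1008 in siCIP2A and 1009.7 in siNT, and at 746 in OP449 and 737 in PBS. It was high in siCIP2A and siNT and lower in the other 3 libraries. IFIT, IFITM and GBP genes are close relatives, and the sources used here do not say how reads shared by relatives, or by overlapping genes on the other strand, were counted.

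The steadiest genes of the list were TRIM21, an antibody receptor and E3 ligase, with a highest-to-lowest ratio of 1.08 over the libraries, PML, the organizer of nuclear bodies, at 1.14, IFIT5 at 1.14, IFITM2 at 1.18 and ADAR at 1.18. IFIH1 (MDA5), the sensor of long double-stranded RNA, stood at 205 scaled counts in siSET, 152 in siCIP2A and 167 in siNT, and at 133 in OP449 and 170.0 in PBS. It was highest in siSET and lowest in OP449, and its intervals span 0 in all 4 comparisons. IRF7, the master factor of type I interferon genes, stood at 100.5 to 125 scaled counts over the libraries, and its intervals too span 0 in the 4 comparisons.

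Other genes of the pathway were read from a list of 68, of which 44 were in the table and 33 or 34 past the floor in each comparison. Of the ligands, IFNL1, IFNL2 and IFNL3 had 0 reads in every library. The type I ligands and their receptor genes were not analysed here. The kinases JAK1, at 2291 in siSET, 2289 in siCIP2A, 2164 in siNT, 2200.4 in OP449 and 2030.2 scaled counts in PBS, and TYK2, at 888 to 985, varied little. In OP449 1 gene of this list was at least 1.5-fold higher (all genes 1.98%) and none lower (all genes 1.77%). It was IFNLR1, a receptor chain of type III interferon, listed as IL28RA, at 81.2 scaled counts in OP449 against 32.9 in PBS and 1.28 [0.65 to 1.99]. IFNLR1 passed the floor only through its OP449 value, and it was under the floor in the other comparisons. The median log2 fold of this wider list was 0.09 in OP449 over PBS, beside -0.13 for the interferon-stimulated genes.

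In siSET 2 genes of the wider list were at least 1.5-fold higher (all genes 2.84%) and 3 lower (all genes 4.31%). TRIM34, which lies beside TRIM5 and TRIM22 among the TRIM genes of chromosome 11, stood at 104 scaled counts in siSET against 49.8 in siNT (1.05 [0.48 to 1.67]), and SLFN5 at 0.64 [0.40 to 0.88]. Lower were SOCS1, a feedback inhibitor of JAK kinases, at -0.80 [-1.29 to -0.35], IL15RA, a receptor chain of interleukin-15, at -0.78 [-1.13 to -0.44], and CIITA, the activator of MHC class II genes, at -0.63 [-0.83 to -0.44]. In siCIP2A TRIM34 alone was at least 1.5-fold apart, at 0.93 [0.40 to 1.52] (all genes 2.75% higher and 3.33% lower). TRIM34 passed the floor over siNT only through its values in siSET and in siCIP2A (96.1 scaled counts), since siNT stood at 49.8. In siNT over PBS, CIITA was at 0.85 [0.68 to 1.04] and PHF11 at -0.88 [-1.28 to -0.50], the 2 genes of the wider list past 1.5-fold (all genes 1.63% higher and 1.4% lower). The medians of the wider list were -0.15 in siSET, 0.00069 in siCIP2A and 0.07 in siNT over PBS.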

How the data were processed

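The 5 libraries of MDA-MB-231 cells, 1 per group, were grouped by their titles and treatment labels. The authors deposited scaled counts per RefSeq transcript, a signal in which each library's counts had been divided by a single factor. Bowtie 1.0.0, CASAVA and hg19 are named, with no role, per the submitters' processing notes. The sources used here do not give the counting program, the use of strand or the scaling method. Whole read counts were recovered from the deposited steps: 100% of values came out whole within 0.001 reads.

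For each gene the transcript with the highest mean was used, and fold was computed as log2 of scaled counts + 1 where the 2 libraries averaged at least 50. Called genes were those past 2-fold, or 1.5-fold where said, without a test. Genes past 1.5-fold in any of the 4 comparisons are described in full. Intervals (95%, scipy 1.17.1) cover counting error only, since reads carry no molecular identifiers. Lengths came from GENCODE 29 and promoters from RefSeq. The steps were tested on simulated data. The genes and lists were chosen with earlier results of these data known.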

Additional observations from a re-analysis of the deposited data

How the results depend on the processing

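At 2-fold, 1 gene of the list was called in siSET over siNT, 3 in siCIP2A over siNT, 0 in OP449 over PBS and 0 in siNT over PBS. A floor of 200 left 0 in siSET and 1 in siCIP2A, and no floor gave 3 in OP449, because fewer or more genes then pass. Those 3 were OAS1, TRIM22 and IFI44L, which are too low to read firmly. Shares of all genes at these other floors are not given, so the counts there are not set against all genes. With PBS as control there were 0 in siSET and 0 in siCIP2A. A 1.5-fold threshold gave 2 in siSET, 8 in siCIP2A, 2 in OP449 and 2 in siNT over PBS. An exact binomial test on reads (Benjamini-Hochberg at 0.05), chosen after seeing the data, compares libraries and not conditions. It called 10, 13, 12 and 11 genes in the same order, beside 30%, 33.7%, 27.1% and 26.4% of all genes. In siSET 4 of these were higher and 6 lower, although more intervals lay above 0 than below. The called genes were 3 higher and 10 lower in siCIP2A, 3 and 9 in OP449, and 10 and 1 in siNT over PBS. With PBS as control the list's median moved to 0.02 in siCIP2A, beside -0.09 over siNT, and to 0.13 in siSET, beside 0.04. Under the other alternatives run it lay between 0.02 and 0.05 in siSET, -0.11 and -0.04 in siCIP2A, -0.16 and -0.11 in OP449, and 0.08 and 0.10 in siNT over PBS. Of 65 single-gene folds, 24 left their interval with PBS as control. None of 135 did under the pseudocount of 10, any of the 3 other scalings or the mean over transcripts. No paired analysis was possible because each group has 1 library, and for the same reason none could be left out. The siSET library had the fewest reads, and under about 50 scaled counts the intervals are wide.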

Other observations

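OAS2, a synthetase of the 2-5A signal, was listed with 3 transcripts, and their folds differed in sign. A shorter transcript (NM_001032731) stood at 99.2 scaled counts in siSET against 139.8 in siNT, a log2 fold of -0.49 [-0.97 to -0.03]. The 2 other transcripts stood above siNT, NM_002535 at 0.44 [0.01 to 0.89] and NM_016817 at 0.42 [-0.04 to 0.88]. In siCIP2A over siNT the folds were -0.20, 0.34 and 0.43 in that order. Of the 12 readable genes of the list with several transcript rows, OAS2 alone had rows over 0.3 apart on the log2 scale, and the median gap was 0.03. The rows share reads, so they are not independent.

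ISRE cores were held by 6 of the 7 windows of genes past 1.5-fold in some comparison and by 14 of the 21 windows of the other genes. Among the 8 genes 1.5-fold lower in siCIP2A than in siNT, ISG15, IFI44, RSAD2, IFIT1 and IFITM1 held a core and XAF1 held none in its window. OASL and DHX58, also among the 8, had no window to search. The counts are small, and whether cores go with lower values was not tested.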
